A study of Mus musculus with 34 samples.

Results

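The comparison set the end of the lonafarnib course of the mouse pre-B acute lymphoblastic leukaemia line 8093 (day 26, 2 arrays) against its midpoint (day 4, 3 arrays). These 5 arrays of 34 in the series were chosen by their titles, and no measured value entered the choice. Both groups came from 8093, a line from the leukaemia of a BCR/ABL transgenic mouse on an inbred C57Bl/6J background, held throughout in medium with IL-3 on one irradiated mouse embryonic fibroblast feeder layer and in 1 µM lonafarnib by the treatment protocol (the design text gives the unit as mM). At the midpoint the viability of the culture was 20% by the labels, and at the end it was about 90% and growth had resumed under the drug. A start group of the same course (3 arrays, no drug yet) stood beside them. For comparison there were 5 midpoint and end arrays of 8093 given 20 nM nilotinib, an inhibitor of the ABL kinase, and 6 of a second line, Bin-2 (mixed background), given 0.25 µM lonafarnib. Replicates were separate plates of the one line, so the spread between them is a spread between cultures and not between animals. More culture went into each midpoint replicate (a dish of 15 cm, or 2 of 10 cm combined) than into each end replicate (a dish of 10 cm). Cells floating or loosely attached above the feeder layer were collected, and the question the design puts is how the transcripts of the culture at its low point differ from those of the population that grew out under the drug.

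Lonafarnib blocks farnesyltransferase, the enzyme that joins a farnesyl lipid to the tail of proteins such as the Ras and Rheb GTPases, the nuclear lamins and the mitotic motor Cenpe. The farnesyl group is drawn from the mevalonate pathway, which also feeds cholesterol synthesis and GGTase-I, the related enzyme that attaches the longer geranylgeranyl lipid. BCR/ABL drives pre-B leukaemia through Ras, STAT5 and PI3K signalling. A pre-B cell is recognised by the surrogate light chains Igll1 and Vpreb1, the transcription factors Ebf1 and Pax5, and the receptor for IL-7.

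All values are log2 signals of one probeset per gene on Affymetrix Mouse Gene 1.0 ST arrays, so a difference of 1 is a doubling. Over all genes the median level in these 5 arrays was 5.42, with 10% of genes under 3.12 and 90% under 8.73. The arrays carry no read depth, and their number limits the precision. The interquartile range of the 19938 genes lay between 3.34 and 3.65 in the 5 arrays. A gene was called when its Benjamini-Hochberg adjusted p in limma, fitted over all 34 arrays and 19938 genes, was below 0.05. The pre-B markers Igll1, Vpreb1 and Ebf1 stayed high in both groups. Igll1 was at 12.24, 12.14 and 12.24 at the midpoint and at 12.10 and 11.97 at the end, Vpreb1 at 10.08 and 9.80 at the end, and Ebf1 at 9.99 and 10.11 at the end, and none of the 3 was called (limma, adjusted p between 0.377 and 0.609). Pax5 was 1.45-fold lower at the end, also without a call. The mean over 39 pre-B genes was 8.04 to 8.05 at the midpoint and 7.94 to 7.98 at the end. Both end arrays thus lay below the midpoint arrays and below the start arrays (8.045 to 8.075), and 27 of the 39 genes were lower at the end.

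Between midpoint and end 1248 of the 19938 genes were called (6.26%). Of these 788 rose (3.95% of all genes) and 460 fell (2.31%), and 84 rose and 92 fell by at least 2-fold. The median difference over all genes was -0.03. The 2 end arrays lay entirely above or entirely below the 3 midpoint arrays for 7456 genes (37.4%), among them 1246 of the 1248 called. The count of calls rested on the number of arrays. Without end array 1 it was 687, without end array 2 it was 600, and without midpoint array 2 it was 823. Fitted over the 5 compared arrays alone it was 733. Of 141 called genes picked by the naming rule, 60 kept their call without each array in turn and 81 lost it without at least 1. Where several arrays ended a call, the text gives the one that left the highest adjusted p.

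The rising genes were not spread evenly over the genome. Genes were placed on chromosomes by their RefSeq records (GRCm38.p6), and medians were taken over 8673 genes with a mean log2 signal of at least 6 over the 34 arrays. The chromosomes that stood apart, 5 in number, were singled out after their values were seen. The median gene of chromosome 19 was 0.58 higher at the end than at the midpoint, a 1.49-fold level, and that of chromosome 18 was 0.32 higher. Chromosomes 3, 17 and 8 had medians of 0.24, 0.19 and 0.19. The other 15 chromosomes had medians between -0.02 and 0.04. For scale, the log2 of 3 over 2 is 0.585, and the medians of chromosomes 18, 3, 17 and 8 lay below it. What lies behind these medians was not tested, and DNA copy number was not measured.

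**Figure D1:**
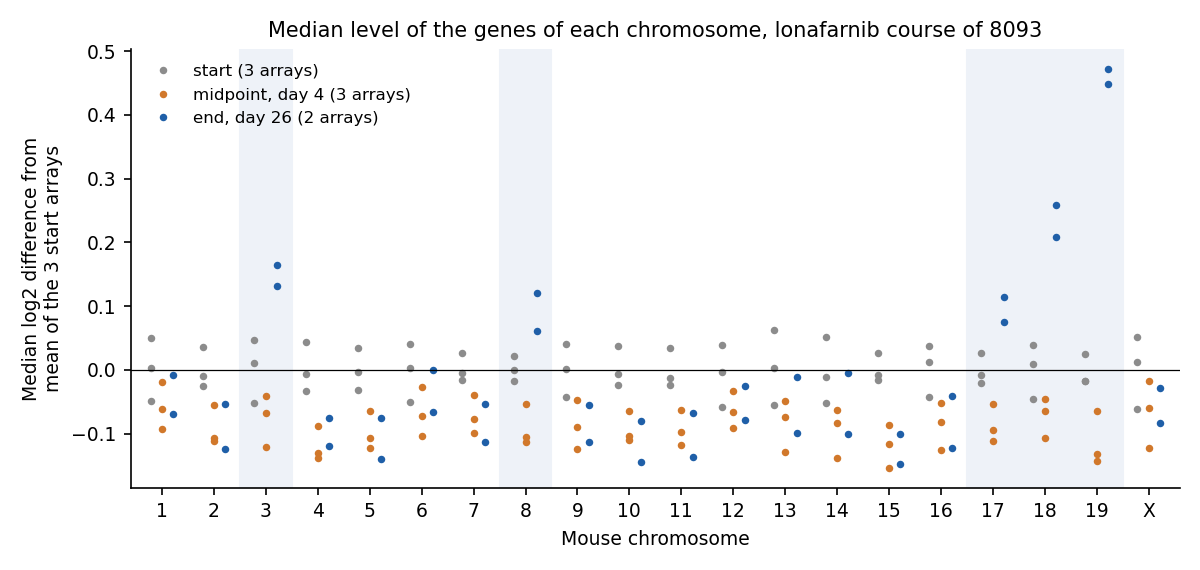
Median log2 difference of the genes of each mouse chromosome from the mean of the 3 start arrays, for every array of the lonafarnib course of 8093 (grey, start; orange, midpoint; blue, end); genes with a mean of at least 6 were used, and the 5 chromosomes named in the text are shaded. The 2 end arrays stand at 0.47 and 0.45 on chromosome 19 and at 0.26 and 0.21 on chromosome 18, while on the 15 unshaded chromosomes they lie among or beside the midpoint arrays.

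Both end arrays showed the pattern. Against the mean of the start arrays, the median of the 326 chromosome 19 genes was -0.06, -0.14 and -0.13 in the 3 midpoint arrays and 0.47 and 0.45 in the end arrays. On chromosome 18 the midpoint arrays read -0.05, -0.11 and -0.07 and the end arrays 0.26 and 0.21. On chromosome 3 they read -0.04, -0.12 and -0.07 against 0.17 and 0.13. The end and midpoint arrays did not overlap on any of the 5 chromosomes, and the 3 start arrays lay between -0.05 and 0.05 on each of them. With 2 arrays against 3 the exact two-sided permutation test can give no p below 0.1, which is what it gave for each of the 5. The exact p was 0.4 or more on each of the other 15 chromosomes.

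The shift was not held to one stretch of these chromosomes. When the chromosome 19 genes were ordered by position and split into 10 stretches of 32 or 33 genes, every stretch had a median between 0.48 and 0.72. On chromosome 18 the stretches lay between 0.20 and 0.39, on chromosome 3 between 0.19 and 0.29, on chromosome 8 between 0.12 and 0.26, and on chromosome 17 between 0.05 and 0.29. On chromosome 1 they lay between -0.03 and 0.13, and single stretches of chromosomes 15, 4 and 13 reached 0.18, 0.16 and 0.16. The lowest stretches of chromosomes 8 and 17 thus lay within the range of the other chromosomes, and those of chromosomes 3, 18 and 19 did not. Of the chromosome 19 genes used, 312 of 326 (95.7%) were higher at the end, against 273 of 498 (54.8%) on chromosome 1.

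**Figure D2:**
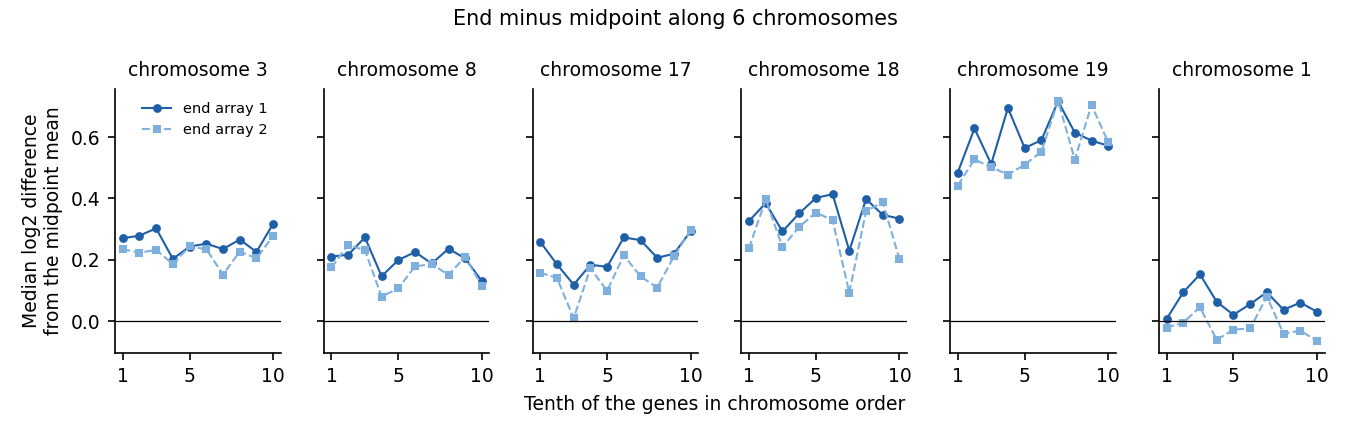
Median log2 difference of each end array from the mean of the 3 midpoint arrays (vertical axis) in 10 stretches of equal gene number along the chromosome (horizontal axis), for chromosomes 3, 8, 17, 18 and 19 and, for comparison, chromosome 1; circles are end array 1 and squares end array 2. All 10 stretches of chromosome 19 lie between 0.44 and 0.72 in both arrays, and those of chromosome 1 lie between -0.06 and 0.15.

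These 5 chromosomes held 3996 of the 19938 genes (20%) and 522 of the 788 rising genes (66.2%), so 13.1% of their genes rose. Among all other genes 266 rose (1.67%). Of the falling genes 60 lay on the 5 chromosomes (1.5% of their genes) and 400 elsewhere (2.51%). On chromosome 19 alone 234 of 678 genes rose and 5 fell. Of changes of at least 2-fold, 47 of the 84 rising and 19 of the 92 falling genes lay on the 5 chromosomes. When each array was centred chromosome by chromosome, the count turned to 352 rising and 752 falling. The centring took its medians from genes with a mean of at least 6 and subtracted them from dimmer genes too. The median difference over all genes moved from -0.03 to -0.07, and the part of this in the 752 falls was not tested. When the 5 chromosomes were left out of the fit 506 genes were called, 209 rising and 297 falling. Relative to all genes, chromosome 19 stood at 0.53 in end minus midpoint of the lonafarnib course of 8093, at 0.01 in the nilotinib course of the same line and at 0.00 in Bin-2 with lonafarnib. The other courses had shifts of their own. In the nilotinib course chromosome 14 stood at -0.35 and chromosome X at 0.19. In Bin-2 with lonafarnib chromosome 11 stood at -0.21 and chromosome X at 0.11. On the same scale chromosomes 3, 8 and 17 stood at 0.19, 0.14 and 0.14 in the lonafarnib course of 8093. DNA copy number was not measured here, and its part in these values was not tested. In what follows, a gene that lies on one of the 5 chromosomes is marked by its chromosome, and counts of list members off these chromosomes are read against 1.67% rising and 2.51% falling.

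Among single genes, S100a6 rose most. S100a6 is a small calcium-binding protein of the EF-hand family and lies on chromosome 3. Its log2 signal was 5.98, 5.10 and 5.26 at the midpoint and 8.06 and 8.30 at the end. Every end array lay above every midpoint array. The naming rule required this of each leading rising gene, and the reverse of each leading falling gene. The midpoint lay near the start mean of 5.10. The difference was 2.73 ± 0.34 (SE), a 6.65-fold rise (limma, adjusted p = 3.5e-06), and 2.49 after chromosome centring. S100a1, S100a13 and S100a10, all on chromosome 3, rose by 1.13, 0.74 and 0.41. Only S100a1 of these 3 kept its call after chromosome centring (limma, adjusted p = 0.0062, against 0.0554 and 0.465), and S100a13 and S100a10 lost theirs without end array 2 (0.0529) and without end array 1 (0.255). Of 28 S100, annexin and galectin genes in all, 4 rose, all 4 S100 genes on chromosome 3, and 1 fell, the galectin Lgals3, with a list median of -0.07.

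The Gimap genes, which encode GTPases of the immunity-associated protein family found in lymphocytes, rose together. They form one cluster on chromosome 6, whose median was 0.02. Of 8 measured members 7 rose and none fell, against 1.67% rising among genes off the 5 chromosomes, and the median of the 8 was 0.97. Gimap3 read 5.58, 4.88 and 4.64 at the midpoint and 7.29 and 7.16 at the end. The difference was 2.18 ± 0.29 (limma, adjusted p = 1.11e-05). Gimap7 went from 6.62, 6.08 and 6.63 to 8.38 and 7.97, a rise of 1.73 ± 0.18. For both genes the end arrays stood above all start and midpoint arrays. Gimap8, Gimap4, Gimap5, Gimap1 and Gimap6 rose by 1.13, 1.11, 0.83, 0.66 and 0.57, and Gimap9 was 0.23 higher and not called (limma, adjusted p = 0.516). The calls of Gimap1 and Gimap6 ended without end array 1 (adjusted p = 0.102 and 0.27), and without one array at a time between 5 and 7 members were called. Of the 5 measured genes on each side of the cluster, 1 of the 10 rose (Gm5111, by 0.46) and 1 fell (Tmem176a, by 0.45). At the midpoint the Gimap list stood close to the start (median 0.04), and at the end it stood 1.01 above the start, comparisons that share arrays with the one described here.

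Lymphoid genes moved in both directions. Dntt, the terminal transferase that adds bases at antigen-receptor joints, is on chromosome 19. It read 8.59, 8.54 and 8.48 at the midpoint and 10.48 and 10.17 at the end. It rose by 1.79 ± 0.20 (limma, adjusted p = 1.18e-06), and by 1.21 after chromosome centring. Il7r, the IL-7 receptor chain, went from 9.03, 8.88 and 9.24 to 9.99 and 9.96, a rise of 0.93 ± 0.18 (adjusted p = 0.00134), with the start mean at 10.54 above both. Blnk, an adaptor of pre-B receptor signalling on chromosome 19, rose by 0.95, and by 0.37 after chromosome centring with no call (adjusted p = 0.121). Spib, an Ets factor of the B and plasmacytoid lineages, fell from 8.18, 7.95 and 7.99 to 6.53 and 6.56, a fall of 1.49 ± 0.15 (adjusted p = 2.22e-07). Rag2, Cd24a and Bach2 fell by 0.84, 0.61 and 0.46, calls that ended without end array 1 for Rag2 (adjusted p = 0.422) and without end array 2 for Cd24a (0.385) and Bach2 (0.167). Of 39 pre-B genes 3 rose (1 off the 5 chromosomes) and 4 fell, with a median of -0.11.

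The other leading rises were of genes with unlike roles. Il12a (chromosome 3), the p35 chain of interleukin-12, rose from 5.51, 5.17 and 5.52 to 7.04 and 7.30 (1.77 ± 0.17). Sgce, a sarcoglycan, rose from 3.73, 3.68 and 4.20 to 5.78 and 5.65 (1.84 ± 0.19). Elovl7, a fatty acid elongase, rose from 5.24, 5.66 and 5.31 to 7.04 and 7.09 (1.66 ± 0.19). That the groups of these 3 did not overlap was a condition of the naming rule, and the rises held without any one array. Entpd1 (chromosome 19), the ectonucleotidase CD39, rose by 1.48, and Fam111a (chromosome 19), a protease that acts at replication forks, by 1.54. The gene listed as ccdc198, the histone gene H3c15 (chromosome 3), Mirt1 (chromosome 19), Stxbp6, Mrgpra1 and the adhesion molecule Ncam2 rose by 2.10, 1.80, 1.66, 1.67, 1.49 and 1.48 (limma, adjusted p of the 6 at most 9.06e-05). Of the 15 leading rising genes 7 lay on the 5 chromosomes, and 17 of 43 rising genes on those chromosomes that the naming rule picked were still called after chromosome centring. A run of protocadherin beta genes on chromosome 18 also rose, a family looked at after its values were seen. Of 22 members 8 rose, the neighbours numbered 16 to 22 and Pcdhb14, by 0.55 to 1.47, beside a chromosome median of 0.32. These copies are near-identical, and whether the probes tell them apart was not tested.

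**Figure D3:**
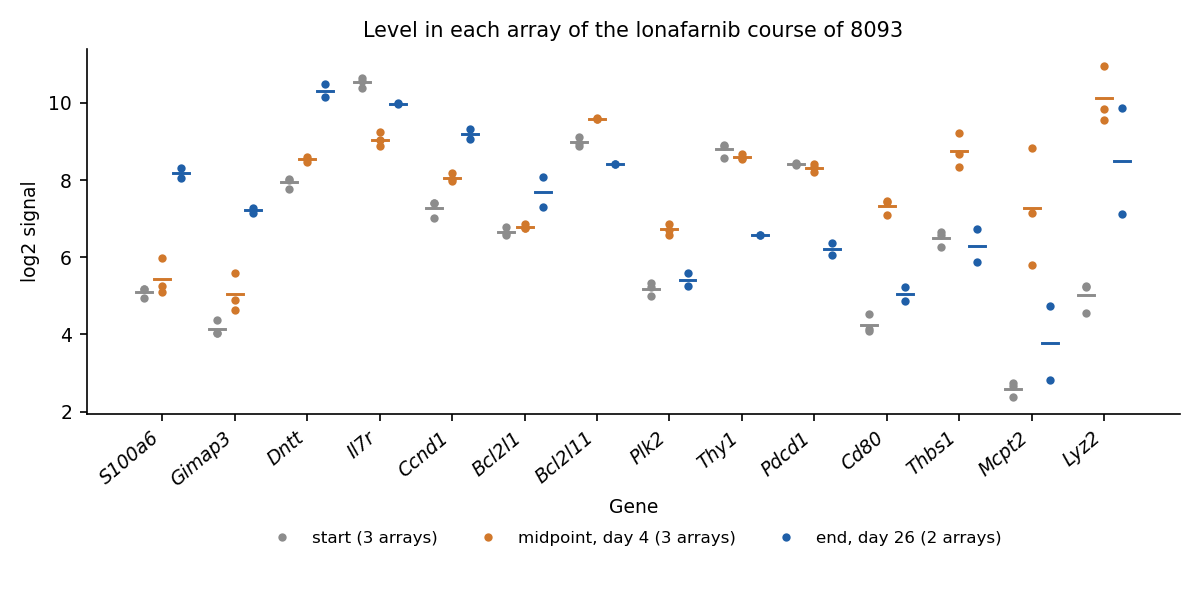
Log2 signal (vertical axis) of 14 genes in each array of the lonafarnib course of 8093 (grey, start; orange, midpoint; blue, end); points are arrays and short bars group means. S100a6 is at 8.06 and 8.30 in the end arrays and at or below 5.98 in all others, and Thy1 at 6.57 and 6.58 against at least 8.55 at the midpoint, while Lyz2 has one end array at 7.12 and the other, at 9.87, among the midpoint arrays.

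Genes of cell division were higher at the end. In mitosis, chromosomes are pulled apart by a spindle of motors and kinetochore proteins that are made afresh in each cycle. Of 39 mitosis genes 11 rose and none fell, 36 of 39 were higher, and the median was 0.33. Of the 11, 8 lay off the 5 chromosomes, where 1.67% of genes rose. Between 4 and 9 were called without one array at a time, and 7 after chromosome centring. The mean level of the list was 8.17, 8.15 and 8.13 in the midpoint arrays and 8.49 and 8.53 in the end arrays, without overlap, and 8.60 to 8.71 at the start. In the midpoint against the start, 28 of the 39 had fallen and none had risen (median -0.49), and in the end against the start 8 were still lower and 1 higher (median -0.15). Those comparisons share arrays with each other.

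Cenpe (chromosome 3), the kinetochore motor that is itself farnesylated, read 7.04, 6.996 and 7.13 at the midpoint and 7.74 and 7.97 at the end, a rise of 0.80 ± 0.13 (limma, adjusted p = 0.000186), and of 0.56 after chromosome centring (adjusted p = 0.00429). The spindle motor Kif11 and the passenger protein Incenp, both on chromosome 19, rose by 0.77 and 0.71, but by 0.19 and 0.14 after chromosome centring, without a call (adjusted p = 0.442 and 0.532). Off the 5 chromosomes, Prc1, which bundles the central spindle, went from 7.65, 7.74 and 7.71 to 8.24 and 8.34 (0.59 ± 0.13, adjusted p = 0.00293). The kinetochore subunit Spc25 went from 7.23, 7.02 and 6.84 to 7.65 and 7.60 (0.60 ± 0.16, adjusted p = 0.0175). Hmmr, a spindle assembly factor, went from 7.05, 6.81 and 7.12 to 7.57 and 7.79 (0.69 ± 0.17, adjusted p = 0.0111). The groups of these 3 genes did not overlap, as in nearly all called genes, but their calls did not hold with fewer arrays. Without end array 2 Prc1 had an adjusted p of 0.0705 and Hmmr of 0.182, and without end array 1 Spc25 had 0.131 (limma). Anln, the cleavage furrow scaffold, rose by 0.88, a call that ended without end array 2 (0.46, adjusted p = 0.427).

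Many promoters of the mitosis list hold letters known from cell-cycle control. The CHR element TTTGAA, together with CCAAT boxes, is a known mark of genes of late G2 and mitosis. Windows of 250 bases before to 50 bases after the start were found for 31 of the 39 mitosis genes among RefSeq promoters (GRCm38.p6). TTTGAA was present on either strand in 24 of the 31, against 20.2% of 27025 genes with a window, and CCAAT in 23 of the 31, against 41.1%. Both were present in 21 of 31, against 7.97%. CCAAT was not particular to this list. It was present in 16 of 17 sterol genes, 15 of 20 p53 targets, 21 of 34 replication genes and 3 of 8 Gimap genes with a window. TTTGAA was present in 1, 4, 5 and 3 of these. Of the 8 rising genes with a window 4 had both (50%, against 67.7% of the 31), so both together were not more frequent among the rising members. The match is a description of letters, not of binding. The windows of Prc1 (chr7:80294201-80294500, plus strand), Spc25 (chr2:69206164-69206463, minus strand) and Hmmr (chr11:40733388-40733687, minus strand) are shown because these rising genes lie off the 5 chromosomes and hold both motifs. Prc1 and Spc25 were picked for this after their values were seen. They are written 5′ to 3′ in the direction of the gene, with TTTGAA and, on either strand, CCAAT in capitals.
Prc1: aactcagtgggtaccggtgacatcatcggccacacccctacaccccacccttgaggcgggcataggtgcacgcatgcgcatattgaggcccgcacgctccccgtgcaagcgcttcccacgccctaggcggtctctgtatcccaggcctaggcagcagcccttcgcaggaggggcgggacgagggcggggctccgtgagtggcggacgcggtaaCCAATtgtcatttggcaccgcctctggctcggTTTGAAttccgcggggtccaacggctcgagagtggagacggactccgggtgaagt
Spc25: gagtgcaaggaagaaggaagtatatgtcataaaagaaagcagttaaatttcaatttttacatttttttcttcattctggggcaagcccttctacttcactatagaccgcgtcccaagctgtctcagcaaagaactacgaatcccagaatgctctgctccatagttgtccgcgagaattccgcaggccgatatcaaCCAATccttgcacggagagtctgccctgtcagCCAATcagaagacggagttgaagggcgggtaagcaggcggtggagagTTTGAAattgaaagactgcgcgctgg
Hmmr: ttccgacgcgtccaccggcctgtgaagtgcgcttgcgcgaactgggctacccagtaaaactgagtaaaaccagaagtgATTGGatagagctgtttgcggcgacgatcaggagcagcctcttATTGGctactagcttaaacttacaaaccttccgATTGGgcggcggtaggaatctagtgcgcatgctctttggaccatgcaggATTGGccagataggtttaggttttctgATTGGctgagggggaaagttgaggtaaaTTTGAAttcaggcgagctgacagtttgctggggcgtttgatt

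The DNA replication list had fewer calls off the 5 chromosomes. Of its 41 genes 35 had fallen from start to midpoint. From midpoint to end 7 rose and none fell (median 0.24), but only 2 of the 7, Prim1 and Mcm3, lay off the 5 chromosomes. Pola2 (chromosome 19), a subunit of the DNA polymerase alpha complex, rose by 0.80, and by 0.23 after chromosome centring with no call (limma, adjusted p = 0.348). Prim1, the primase subunit, rose by 0.73, a call that ended without end array 1 (0.72, adjusted p = 0.0618), and Mcm3, of the replicative helicase, by 0.47, a call that ended without end array 2 (adjusted p = 0.194). Ccnd1, the cyclin D1 of the G1 phase, went from 8.02, 8.19 and 7.99 to 9.32 and 9.07, and rose by 1.13 ± 0.19 (limma, adjusted p = 0.000258). Ccnd2, another D cyclin, fell by 0.45, a call that ended without end array 2 (adjusted p = 0.148). The 17 histone genes of the list had no call either way by limma, and Plk1 and Rrm2 were 0.31 and 0.49 higher without a call (adjusted p = 0.256 and 0.154).

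Genes of the mevalonate and sterol pathway rose in part. Of 21 measured 7 rose and none fell, 20 of 21 were higher, and the median was 0.32. Of the 7, 4 lay on the 5 chromosomes and 3 elsewhere, and the median of the members elsewhere was 0.31. Msmo1 (chromosome 8), a sterol methyl oxidase, read 9.74, 9.58 and 10.08 at the midpoint and 10.83 and 10.42 at the end, a rise of 0.82 ± 0.14 (limma, adjusted p = 0.000272), and 0.63 after chromosome centring. Off the 5 chromosomes, Fdft1, the squalene synthase that takes farnesyl diphosphate into sterols, rose by 0.58, and Hmgcs1, the synthase at the head of the pathway, by 0.56. The calls of both ended without end array 1 (adjusted p = 0.254 and 0.151). Without one array at a time between 2 and 6 of the list were called.

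The prenylation enzymes that rose all lay on the 5 chromosomes. Fnta and Fntb, the subunits of farnesyltransferase, the target of the drug, were not called. Fnta (chromosome 8) read 6.96, 6.77 and 6.64 at the midpoint and 7.15 and 7.19 at the end (0.38, limma, adjusted p = 0.147), and Fntb 6.15, 5.91 and 6.02 against 6.28 and 6.02 (0.12, adjusted p = 0.729). Pggt1b (chromosome 18), the beta subunit of GGTase-I, rose by 0.65, and by 0.33 after chromosome centring with no call (0.206). Its call also ended without end array 2 (0.51, 0.202). Rabggtb (chromosome 3), of the enzyme that prenylates Rab GTPases, rose by 0.87, and kept a call after chromosome centring (0.63, adjusted p = 0.000861). Fdps (chromosome 3), the farnesyl diphosphate synthase, rose by 0.64, a call that ended without end array 1 (0.37, 0.234) and after chromosome centring (0.40, 0.106). These 3 were the called members of 13. Of 34 proteins that carry a prenyl group 3 rose, Cenpe, Rhob and Rhebl1, and none fell. The call of Rhebl1, a Rheb relative, ended without end array 1 (adjusted p = 0.307). Rhob, a GTPase that can be farnesylated or geranylgeranylated, went from 6.09, 6.19 and 6.12 to 6.84 and 6.98 (0.78 ± 0.14, adjusted p = 0.000691). The Ras and Rheb members Nras (chromosome 3) and Rheb were 0.23 and 0.11 higher, without a call (0.239 and 0.795), as was Lmnb1 (chromosome 18, 0.25, 0.363).

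Cell death regulators moved in both directions. Bcl2l11 encodes Bim, a BH3-only protein that promotes apoptosis. It read 9.58, 9.59 and 9.60 at the midpoint and 8.42 in both end arrays, which is also below the start mean of 8.98. The fall was 1.17 ± 0.14, a 2.25-fold change (limma, adjusted p = 2.11e-06), and it held without any one array. Bmf, another BH3-only gene, fell from 7.30, 7.32 and 7.38 to 6.77 and 6.38 (adjusted p = 0.000525, and 0.0644 without end array 2). Bcl2l1, whose main product Bcl-xL protects cells, rose from 6.87, 6.76 and 6.75 to 7.31 and 8.07. The end arrays differed from each other by more than the rise in the first, and the call ended without end array 2 (0.52, adjusted p = 0.303). Bok rose by 0.61, with an adjusted p of 0.126 without end array 1, while Bcl2 was 0.28 lower and Mcl1 (chromosome 3) 0.13 higher without a call (0.265 and 0.738). In all 2 of 14 rose and 2 fell, with a median of -0.04.

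Targets of p53, a factor that responds to stress and DNA damage, had more falls than rises. Of 26 measured 8 fell, 2 rose and 16 were not called, with none of the 10 on the 5 chromosomes, against 2.51% falling and 1.67% rising, and the median was -0.27. Between 3 and 7 falls were called without one array at a time. From start to midpoint 16 of the 26 had risen and none had fallen. Plk2, a polo-like kinase, went from 6.87, 6.58 and 6.71 to 5.58 and 5.25, near the start mean of 5.19 (-1.30 ± 0.19, limma, adjusted p = 3.85e-05). Trp53inp1, an autophagy and stress protein, went from 11.24, 11.05 and 11.26 to 10.61 and 10.25 (-0.75 ± 0.12, adjusted p = 9.22e-05), and the repair nuclease Ercc5 fell by 0.84 ± 0.11. The midpoint and end arrays were apart in all 3, as in 1246 of the 1248 called genes. Mdm2, which marks p53 for breakdown, fell by 0.41, a call that ended without end array 1 (0.262). Btg2 fell by 0.89, with an adjusted p of 0.15 without end array 2. Rrm2b and Sesn1 rose by 0.71 and 0.55, calls that ended without end array 1 (0.135) and without end array 2 (0.11).

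Readouts of the signalling below BCR/ABL split. Of 18 STAT5 targets 4 fell and 2 rose (4 and 1 off the 5 chromosomes), with a median of -0.17. Pim2, a survival kinase, went from 8.78, 8.57 and 8.69 to 7.88 and 8.09 (-0.69 ± 0.12, limma, adjusted p = 0.000466), with both end arrays above the start mean of 7.45. Cish, an inhibitor of cytokine signalling, fell by 0.68, a call that ended without end array 1 (0.113). Socs2 and Pim1 (chromosome 17) were 0.25 and 0.07 lower without a call (0.291 and 0.882). Lta (chromosome 17), lymphotoxin alpha, rose by 0.99. Of 32 genes of the Ras and ERK path 5 rose, 4 of them off the 5 chromosomes (Ccnd1, Dusp6, Dusp7 and Etv5), and 1 fell (Jun, by 0.69), with a median of 0.05. Dusp6, a phosphatase induced by ERK, went from 8.40, 8.45 and 8.63 to 9.34 and 9.02, and rose by 0.68, a call that ended without end array 1 (0.52, 0.236). The calls of Dusp7, Etv5 and Jun also ended without that array (0.218, 0.219 and 0.114), and Rasgrp2 (chromosome 19) lost its call without end array 2 (0.0909). Myc was 0.17 lower and Abl1 0.22 lower, without a call (0.657 and 0.225).

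Several surface receptors fell. Of 34 cytokine, growth factor and co-stimulatory receptor genes 11 fell and 2 rose, 10 of the falls off the 5 chromosomes where 2.51% of genes fell, and the median was -0.36. Between 5 and 10 falls were called without one array at a time. Pdcd1, the inhibitory receptor PD-1, stood at 8.33, 8.42 and 8.22 at the midpoint, as at the start (8.42), and at 6.37 and 6.07 at the end. It fell by 2.11 ± 0.15, a 4.3-fold change (limma, adjusted p = 3.2e-10). Thy1, a surface glycoprotein of T cells and some progenitors, stood at 8.55, 8.57 and 8.68 at the midpoint and at 6.57 and 6.58 at the end, and fell by 2.02 ± 0.17 (adjusted p = 6.64e-09). In both genes the midpoint arrays lay close to the start mean, and both calls held without each array in turn. Tiam1, an activator of the GTPase Rac, went from 6.43, 6.81 and 6.76 to 4.83 and 4.81 (-1.85 ± 0.17). Flt3, a growth factor receptor of early progenitors, fell from 8.07, 7.98 and 7.60 to 6.82 and 6.56 (-1.20 ± 0.15).

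Cd80 and Kit fell from a level raised at the midpoint. Cd80, a co-stimulatory ligand, was at 4.25 at the start, at 7.44, 7.10 and 7.47 at the midpoint and at 4.86 and 5.24 at the end. It fell by 2.29 ± 0.39 (limma, adjusted p = 0.00024). Kit, the stem cell factor receptor that mast cells also carry, went from 7.39, 6.69 and 7.002 to 5.88 and 6.03 (-1.07 ± 0.20), near its start mean of 5.69. Of 9 class II histocompatibility genes, 8 of which lie on the 5 chromosomes, 4 fell and 1 rose. All 5 called genes lay on those chromosomes, where 1.5% of all genes fell and 13.1% rose. H2-Aa (chromosome 17) went from 6.20, 6.36 and 5.85 to 4.17 and 3.93 (-2.09 ± 0.35, limma, adjusted p = 0.000174). Its end arrays lay below the start mean of 5.74 and, as the naming rule required, apart from the midpoint. H2-Ab1 (chromosome 17) fell by 1.72, with a start mean of 6.76 and end arrays at 5.73 and 5.04. For H2-Aa, H2-Ab1 and H2-Eb1 the midpoint was not called against the start (limma, adjusted p = 0.531, 0.462 and 0.473). Cd74 (chromosome 18), their invariant chain, fell by 1.24 and H2-Eb1 (chromosome 17) by 0.71, while H2-Ob (chromosome 17) rose by 0.54. The calls of Cd74 and H2-Ob ended without end array 1 (0.182 and 0.636), and that of H2-Eb1 without end array 2 (0.272).

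Markers of cells other than pre-B cells also fell, and in unequal measure in the 2 end arrays. In RNA from whole cultures, fewer cells of a type and less RNA per cell cannot be told apart. Of 27 macrophage genes 7 fell, 5 of them off the 5 chromosomes, and none rose (median -0.66). The mean over the list was 7.20, 6.37 and 6.45 at the midpoint, 5.26 to 5.31 at the start, and 5.45 and 6.39 at the end. End array 1 was thus close to the start and end array 2 within the range of the midpoint. Lyz2, the lysozyme of macrophages, read 10.96, 9.55 and 9.85 at the midpoint and 7.12 and 9.87 at the end, so the groups overlapped, and it was not called (-1.63, limma, adjusted p = 0.112). Mmp12, a macrophage protease, fell by 1.55 with the end arrays at 6.91 and 8.79, a call that ended without end array 1 (adjusted p = 0.673). Between 0 and 9 members of the list were called without one array at a time, with 0 when end array 1 was left out. Between the 2 end arrays 77 genes differed by at least 1, and 61 of them were higher in array 2.

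Of 28 mast cell and granulocyte genes 5 fell, 4 of them off the 5 chromosomes, and none rose (median -0.36). Mcpt2, a mast cell protease, was at 2.60 at the start, at 8.83, 5.81 and 7.16 at the midpoint and at 2.83 and 4.74 at the end. The midpoint arrays were spread widely but did not meet the end arrays, which the naming rule required. The difference was -3.48 ± 0.59 (limma, adjusted p = 0.000245), and -2.53 without end array 1. End array 1 lay under 3.12, the level that 10% of genes do not reach, so the size is uncertain. The same holds for Mcpt1, whose end array 1 stood at 3.09. Mcpt1 went from 7.41, 4.16 and 5.88 to 3.09 and 3.52 (-2.51 ± 0.50, adjusted p = 0.00162, and 0.0432 without end array 1). With a block by title number the calls of Mcpt2 and Mcpt1 ended (0.0523 and 0.0757), and with only the 5 compared arrays that of Mcpt1 did (0.0995). Mcpt4 fell by 1.83, a call lost without that array (0.106). The Mcpt genes are close copies, and whether their probes are shared was not tested. Cpa3 (chromosome 3), the mast cell carboxypeptidase, was not called: it stood at 4.62 at the start, at 10.43, 9.01 and 9.74 at the midpoint and still at 9.001 and 8.98 at the end (-0.74, adjusted p = 0.141). After chromosome centring it was called, at -0.98 (adjusted p = 0.037). The mean of the list was 4.87 to 5.52 at the midpoint, 4.52 to 4.66 at the end and 3.94 to 4.11 at the start.

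Of 32 fibroblast genes, the cell type of the feeder layer, 3 fell, 2 of them off the 5 chromosomes (median -0.16), with list means of 5.03 to 5.10 at the midpoint and 4.83 to 4.86 at the end. Thbs1, thrombospondin 1, went from 9.23, 8.35 and 8.67 to 5.88 and 6.73, on either side of the start mean of 6.50 (-2.45 ± 0.34, limma, adjusted p = 1.81e-05). The collagen Col1a1, a defining fibroblast gene, read 6.23, 6.54 and 6.26 against 6.07 and 6.02 without a call (adjusted p = 0.264). Clec4n, Gpnmb, Ccl9 and Lgals3, genes of macrophages, fell by 2.32, 1.75, 1.94 and 1.72, and all 4 calls ended without end array 1 (adjusted p = 0.325, 0.628, 0.18 and 0.137). Trf, transferrin, and Ndrg2, both above the start at the midpoint, fell by 1.88 and 1.83, with end arrays close to each other for Trf (6.11 and 6.15), and Ptpn13, a phosphatase, by 1.88. Of 20 T and NK cell genes 5 fell (4 off the 5 chromosomes) and 1 rose (Cd5, chromosome 19). The largest of the falls was that of Thy1, described above (by 2.02), and Gzmb and Lat fell by 1.07 each. The part of these cells in the falls described above was not tested. The end arrays lay closer together for Pdcd1, Thy1, Tiam1 and Bcl2l11 than for Lyz2. They were also closer for Trf, Cpa3 and the fibroblast list mean, so their closeness cannot decide that part.

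**Figure D4:**
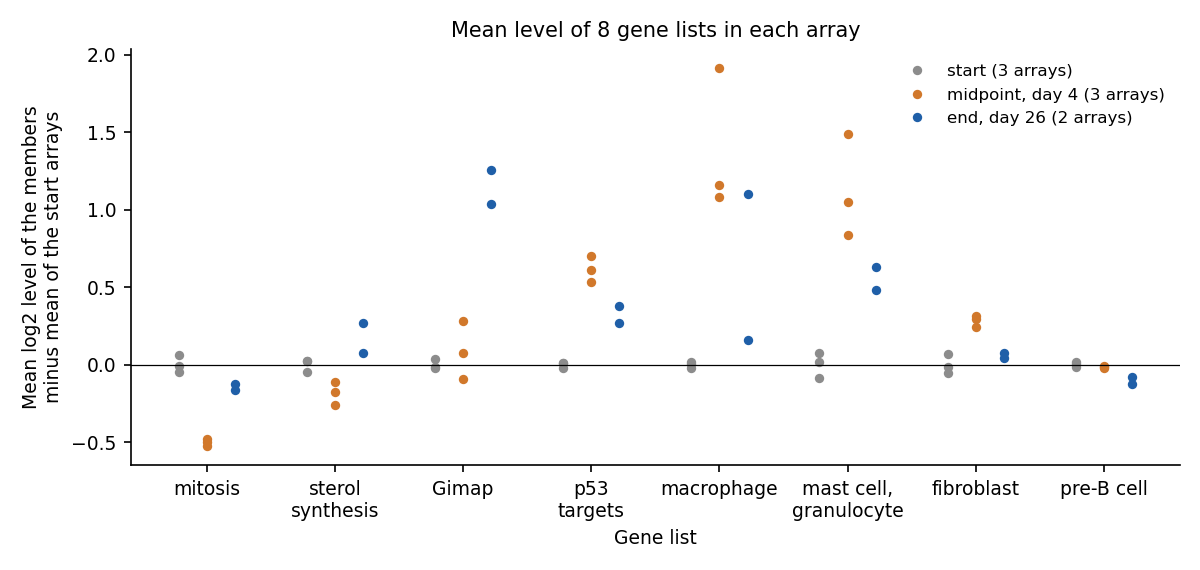
Mean log2 level of the members of 8 gene lists in each array, minus the mean of the 3 start arrays (grey, start; orange, midpoint; blue, end). The mitosis, sterol, Gimap, p53, mast cell, fibroblast and pre-B lists each separate the end arrays from the midpoint arrays. The macrophage list has one end array near the start, at a mean level of 5.45, and the other, at 6.39, among the midpoint arrays.

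The other lists held few calls. Of 33 lysosome and autophagy genes none was called by limma, with a median of -0.17. Of 31 interferon genes 3 rose, of 34 ribosome biogenesis genes 4 and of 29 respiratory chain genes 3, all of them on the 5 chromosomes, and none fell in these 3 lists. Without one array at a time these counts were 2 to 3, 1 to 3 and 0 to 3. Ifit2 (chromosome 19) was the largest, at 1.30, and 0.73 after chromosome centring. Of 19 genes of the oxidative stress factor Nrf2 none rose and 4 fell, 2 of them off the 5 chromosomes and 0 to 2 in all without one array at a time, among them Slc7a11 (chromosome 3), the cystine transporter, by 1.60, a call that ended without end array 1 (limma, adjusted p = 0.33). Of 32 genes of the unfolded protein response and amino acid response 3 rose and 2 fell (1 and 1 off the 5 chromosomes), of 24 FoxO and PI3K genes 2 and 3 (2 and 2), and of 21 stem and progenitor genes 2 and 3 (2 and 3). Lmo2, a haematopoietic transcription cofactor, was the largest rise of the last, from 7.82, 7.50 and 7.83 to 8.66 and 8.56 (0.90 ± 0.12, adjusted p = 9.81e-06). Tfrc, the transferrin receptor, fell by 0.73 ± 0.13 (adjusted p = 0.000331).

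The change from midpoint to end was then set against the same step in the other courses, each a separate set of arrays. With nilotinib in 8093 (day 3 to day 20), 6039 genes had a different change (30.3%). The nilotinib midpoint arrays, from cultures at 5 to 10% viability, stood apart, with interquartile ranges of 2.79 to 3.06 against 3.34 to 3.65 in the 5 arrays described here, and the part of this in the count was not tested. With lonafarnib in Bin-2 (day 3 to day 30), 1997 did (10%), and 1085 without end array 2 of 8093. The lonafarnib midpoint arrays of Bin-2 also had narrow interquartile ranges, from 2.92 to 3.26, and the part of this in the Bin-2 count was not tested. S100a6 rose here by 2.73, against 0.43 with nilotinib and -0.15 in Bin-2, and it differed from both (by 2.30 ± 0.48, limma, adjusted p = 0.000401, and by 2.89 ± 0.46, adjusted p = 7.23e-05). Gimap7 rose here by 1.73, against -1.73 and -0.36, and differed from both as well (adjusted p = 4.89e-12 and 3.77e-07). Gimap3, in contrast, rose here by 2.18 and had -0.80 with nilotinib and 3.49 in Bin-2, above its value here (a difference of -1.30, limma, adjusted p = 0.0296). Dntt rose here by 1.79 against a change of -2.86 with nilotinib (a difference of 4.65 ± 0.29, adjusted p = 2.8e-13). The median of the 39 pre-B genes was -0.11 here, -1.32 with nilotinib and 0.13 in Bin-2 with lonafarnib. In the same order, the median of the sterol list was 0.32, 0.26 and 0.60, and that of the prenylation enzymes 0.16, 0.39 and 0.33. The mitosis list had 0.33, 0.29 and -0.19, and all genes -0.03, -0.15 and 0.005. Spib fell by 1.49 here and stood 1.42 higher at the end in Bin-2 (a difference of -2.91 ± 0.20, adjusted p = 3.63e-11). Thy1 had end minus midpoint values of -2.02 here, -2.27 with nilotinib and -1.16 in Bin-2, and Pdcd1 of -2.11, -1.41 and 0.06.

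**Figure D5:**
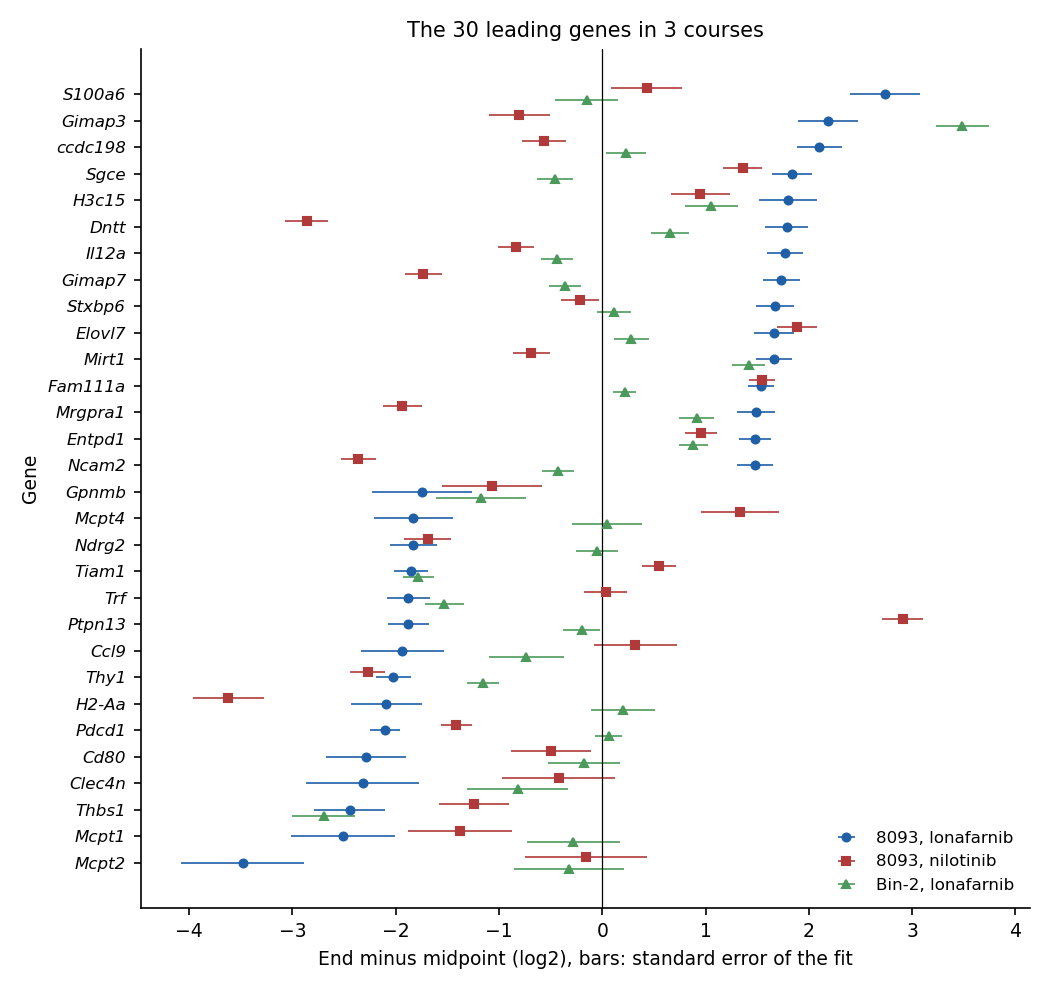
End minus midpoint on the log2 scale (horizontal axis) of the 15 leading rising and 15 leading falling genes of the lonafarnib course of 8093 (blue circles), beside the same step in the nilotinib course of 8093 (red squares) and the lonafarnib course of Bin-2 (green triangles); bars are standard errors of the limma fit, and the genes were chosen on the blue values. S100a6 has 2.73 against 0.43 and -0.15, and Thy1 -2.02 against -2.27 and -1.16.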

How the data were processed

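RNA of 34 cultures was hybridised to Affymetrix Mouse Gene 1.0 ST arrays after Trizol extraction and Enzo labelling, per the labels' protocols. The deposited values are log2 signals per probeset, normalized by the authors; the submitters' processing notes name Partek, with neither its version nor its normalization method stated in the labels. Of 35557 probesets 21789 had 1 gene symbol in the platform annotation, 1621 several and 12147 none listed. The brightest probeset stood for each of 19938 genes (999 had several). Group means of 12 groups were fitted with limma 3.58.1 in R 4.3.3 (22 residual degrees of freedom), with moderated statistics and Benjamini-Hochberg adjustment, and tested on simulated data. Replicate numbers of the titles disagree with the letters of the descriptions for end array 2, and same-numbered arrays did not deviate together (correlations from -0.06 to 0.16), so no block was used. Named genes were the 15 leading called rises and falls with groups apart (predicted genes, small RNAs and receptor segments left out), up to 5 called each way per list, a short fixed set, and up to 5 each way of those that differed between courses. Members and lists were chosen with earlier results of these data known. Alternatives were other normalizations, filters, sample sets, blocks and leaving out each array, and, chosen after seeing the data, leaving out 5 chromosomes or centring each chromosome.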

Additional observations from a re-analysis of the deposited data

Results flagged for a closer look

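The step from midpoint to end differed between courses for many genes, by limma's test of the difference of the differences over all 34 arrays. Lonafarnib minus nilotinib in 8093 gave 6039 genes, and 8093 minus Bin-2 under lonafarnib gave 1997, and 1085 without end array 2. The days of the midpoint and end differed between courses, and so did the drug dose of the lines.

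Against nilotinib, the most negative differences were those of Olfr920 (-5.04), Ptpn13 (-4.79), the amino acid transporter Slc7a8 (-4.22), the T cell adaptor Lat (-4.13) and Galnt3 (-3.94). Ptpn13 changed by -1.88 with lonafarnib and 2.91 with nilotinib, and Lat by -1.07 and 3.07. The most positive were Dntt (4.65), Rasgrp2 (4.42), Gimap4 (4.19), the adaptor Lax1 (4.05) and the receptor Gfra1 (4.02), of which Dntt, Rasgrp2 and Gfra1 lie on chromosome 19. Gfra1 rose by 0.81 with lonafarnib, and after chromosome centring stood at 0.24 without a call (limma, adjusted p = 0.489). Rasgrp2, an exchange factor for Rap GTPases, changed by 0.67 with lonafarnib and -3.75 with nilotinib. The adjusted p of these 10 was at most 4.98e-08.

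Against Bin-2, the most negative differences were those of Myzap (-3.44), Mcpt2 (-3.16), Spib (-2.91), Pld4 (-2.85) and Mbnl3 (-2.62). The most positive were S100a6 (2.89), Msrb3 (2.45), Sgce (2.30), Il12a (2.21) and Gimap7 (2.09). Myzap changed by -0.95 in 8093 and 2.49 in Bin-2, and Msrb3, a methionine sulfoxide reductase, by 1.21 and -1.24. The adjusted p of these 10 was at most 0.00886, that of Mcpt2. Without end array 1 the difference of Mcpt2 was -2.21 with an adjusted p of 0.121, and the other 19 named differences kept their calls without each array in turn. S100a6 and Il12a lie on chromosome 3.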

How the results depend on the processing

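The count of 1248 called genes fell to 733 with only the 5 compared arrays and to 506 without chromosomes 3, 8, 17, 18 and 19, where the 2-fold count was 105. Fewer arrays or genes entered those fits. Leaving out 1 array gave 600 to 1089 genes (687 without end array 1, 600 without end array 2, 823 without midpoint array 2), and 166 to 192 of at least 2-fold. The difference from nilotinib ranged from 4580 to 5963 genes and that from Bin-2 from 1085 (without end array 2) to 1802. Quantile normalization gave chromosome medians of 0.18 (3), 0.12 (8), 0.14 (17), 0.26 (18) and 0.52 (19), and centring and scaling gave 0.18 (3), 0.16 (17), 0.27 (18) and 0.51 (19). Without 1 array the medians were 0.15 to 0.21 on chromosome 17, 0.28 to 0.35 on 18 and 0.53 to 0.60 on 19. The cause of these moves was not tested. After each chromosome was centred, Ndufv1 (-0.018) and Psat1 (-0.0363) turned from rising to negative values without a call, by construction of that setting. Other settings gave 853 to 1487 genes. A replicate block by title number gave 899 genes (758 shared with the 1248) and by description letter 877 (744 shared), and the numbers did not pair the arrays. The 2 end arrays limit every test here, and dim genes lie near the arrays' background.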
